A study of Mus musculus with 23 samples.

Results

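The genes described here encode tau and other neuronal microtubule proteins. They are 9 genes of the 20599 in the expression table: Mapt, Map1a, Map1b, Map2, Map4, Map6, Stmn2, Stmn3 and Tubb3, found by matching each row's Ensembl identifier to its symbol. The set was chosen because Mapt mRNA was higher in both knockout lines than in WT cells, so the knockout against WT values of Mapt are a description and carry no test. The other 8 genes were chosen by family and are tested, though earlier results of these data were known when they were chosen. On mouse build GRCm38 (mm10), with GENCODE vM21 annotation, the genes are Mapt (chr11:104231390-104332090), Map1a (chr2:121289600-121310832), Map1b (chr13:99421446-99516540), Map2 (chr1:66175273-66442583), Map4 (chr9:109931460-110083955), Map6 (chr7:99267447-99337137), Stmn2 (chr3:8509360-8561606), Stmn3 (chr2:181306459-181314500) and Tubb3 (chr8:123411424-123422015). All 9 passed the filter on low values, which kept genes with 1 TPM or more in 3 or more of the 9 RNA-seq libraries (TPM scales reads by gene length and by the library's total, so levels of different genes can be compared).

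The study asked how loss of the circadian activators BMAL1 and CLOCK changes mRNAs in pancreatic β cells. Polyadenylated RNA was sequenced from 3 libraries each of Bmal1-/-, Clock-/- and WT β-TC6 cells, an insulin-secreting line from a mouse insulinoma, and THRAP3, an RNA-binding protein that also associates with chromatin, was mapped by ChIP-seq in 2 libraries each of Bmal1-/- and WT cells. The Bmal1-/- line lacks a Bmal1 exon and the Clock-/- line lacks adjoining Clock exons, which encode the DNA-binding domains, after CRISPR-Cas9 editing, and WT cells carry no edit. The knockout lines are clonal, grown from colonies picked under drug selection, for neomycin resistance in Bmal1-/- and puromycin resistance in Clock-/- cells. Cells were harvested in triplicate from plates, so a p-value measures the spread between wells. The effects of a deletion, of a clone and of its selection cannot be told apart.

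Microtubules are polymers of α- and β-tubulin. Tau, MAP2 and MAP4 share a repeat domain that binds along the polymer and stabilizes it, the MAP1 proteins bind through other domains, MAP6 protects microtubules from cold, and stathmins sequester tubulin dimers or promote disassembly. In neurons tau is found mostly in axons and MAP2 in dendrites, and in β cells microtubules carry and retain insulin granules.

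The libraries of 1 genotype correlated at r = 0.976 to 0.993 across genes and those of different genotypes at 0.918 to 0.952. The 15 β-cell markers did not move together. Ins2 (insulin) was at 18750 to 21750 TPM in Bmal1-/-, 12660 to 16410 TPM in Clock-/- and 27100 to 29440 TPM in WT cells, while Ins1 was at 2197 to 2567, 57.7 to 64.0 and 2277 to 2359 TPM and the glucose transporter gene Slc2a2 at 34.2 to 50.7, 5.81 to 8.25 and 102 to 113 TPM in the same lines. The transcription factor gene Nkx6-1 was at 642 to 656, 468 to 525 and 250 to 273 TPM and G6pc2 at 1102 to 1254, 2642 to 2999 and 1376 to 1487 TPM, and Ucn3 did not exceed 1.85 TPM in any library. Of 7 neuron markers measured, 4 were under 1 TPM in every library (Slc17a7, Slc32a1, Gad1 and Camk2a), and the summed level of the 7 was 188 to 203 TPM in Bmal1-/-, 88.7 to 137 TPM in Clock-/- and 132 to 143 TPM in WT cells, most of it from the synaptic vesicle gene Syn1. All 6 measured markers of stroma, endothelium and immune cells were under 1 TPM. The summed level of 6 glial markers was 29.6 to 30.9 TPM in Bmal1-/-, 22.5 to 27.7 TPM in Clock-/- and 14.0 to 15.2 TPM in WT cells, and that of 4 genes of other islet endocrine cells was 67.6 to 76.5, 1499 to 1674 and 557 to 576 TPM in the same lines. The 3 measured exocrine and duct markers summed to 3.62 to 4.74 TPM in Bmal1-/-, 4.28 to 6.42 TPM in Clock-/- and 14.6 to 16.9 TPM in WT cells, lower in both knockouts as Map6 and Stmn2 were. Their part in the results was not tested, and in bulk RNA fewer cells of a type and less RNA per cell cannot be told apart. The annotated symbol of Bmal1 is Arntl. Arntl averaged 3.42 ± 0.10 TPM in Bmal1-/-, 13.3 ± 2.8 TPM in Clock-/- and 3.79 ± 0.38 TPM in WT cells (SD, n = 3 each), and Clock averaged 34.2 ± 2.9, 36.9 ± 9.3 and 45.8 ± 4.5 TPM in the same order of lines. A level summed over all exons does not check a deletion of a few exons.

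Mapt encodes tau. Its level was 42.7, 50.3 and 45.1 TPM in the 3 Bmal1-/- libraries, 114, 94.2 and 117 TPM in the 3 Clock-/- libraries, and 25.7, 24.1 and 23.0 TPM in the 3 WT libraries. No library of 1 genotype overlapped those of another, and the lines stood in the order Clock-/-, Bmal1-/-, WT. The mean was 1.90 times the WT mean in Bmal1-/- cells (log2 fold change 0.89 ± 0.10, SE) and 4.47 times the WT mean in Clock-/- cells (2.11 ± 0.10). The reason for choosing the genes did not name the contrast of the knockouts, but it rested on the same knockout libraries, and earlier results of these data were known. In that contrast Mapt was lower in Bmal1-/- than in Clock-/- cells by a log2 value of -1.22 ± 0.10 (limma, Benjamini-Hochberg adjusted p = 6.15e-06). Mapt lies on chromosome 11, where the median over 1201 tested genes was 0.35 for Bmal1-/- over WT and 0.06 for Clock-/- over WT on the log2 scale. With the chromosome median subtracted, the Mapt value was 0.54 in Bmal1-/- over WT; what this chromosome-wide shift adds to Mapt was not tested.

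**Figure D1:**
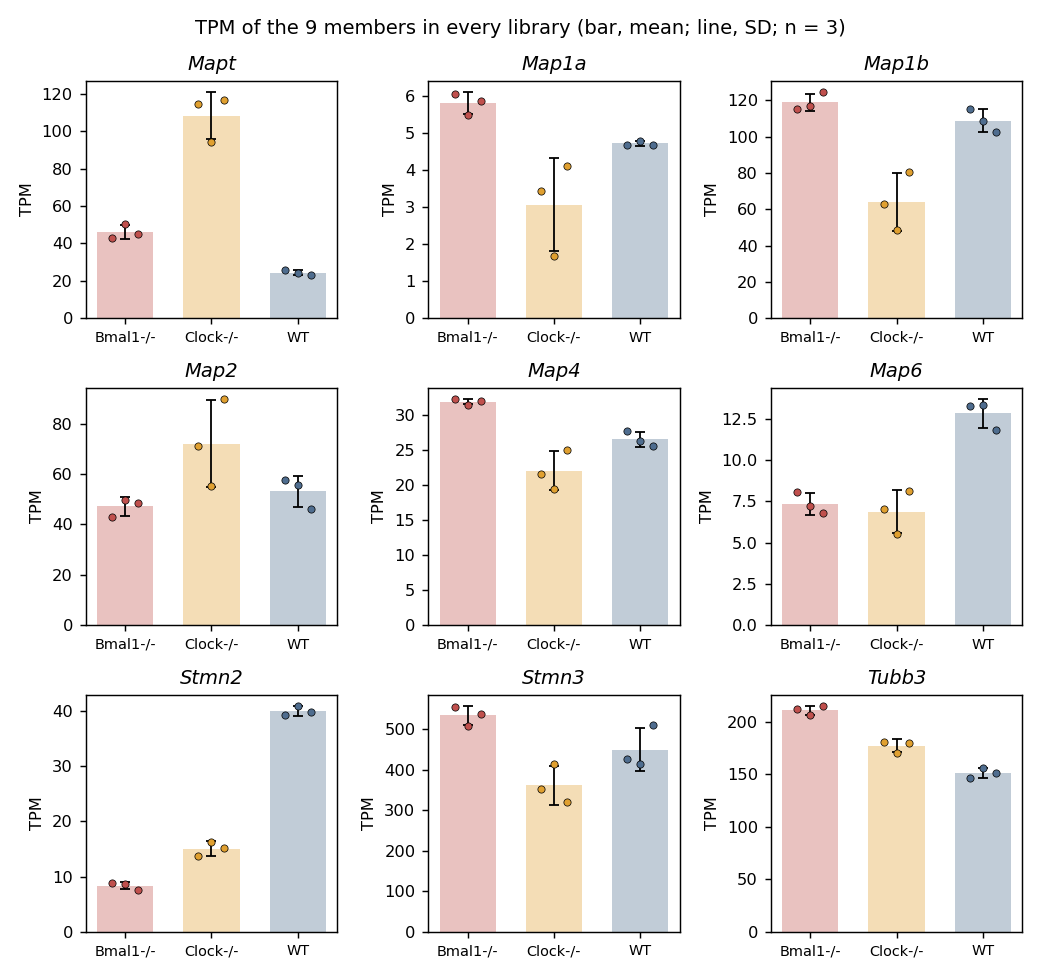
TPM of each gene (vertical axis, starting at 0) in the Bmal1-/-, Clock-/- and WT libraries; points are libraries, bars are means and lines are SD (n = 3). Mapt is highest in Clock-/- cells at 94.2 to 117 TPM, whereas Stmn2 and Map6 are highest in WT cells.

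Map2 and Map4 are the relatives of tau that share its repeat domain. Map2 was at 42.9, 49.9 and 48.5 TPM in Bmal1-/-, 71.0, 55.4 and 89.7 TPM in Clock-/- and 57.6, 55.6 and 46.1 TPM in WT libraries. The knockout ranges both overlapped that of WT, and neither difference passed the test, at -0.17 ± 0.16 for Bmal1-/- over WT (adjusted p = 0.400) and 0.41 ± 0.16 for Clock-/- over WT (adjusted p = 0.0651). The Clock-/- over WT value of Map2 passed in 3 of 18 alternative analyses, with adjusted p down to 8.29e-05. Map4, which is also widely expressed outside neurons, was at 32.3, 31.5 and 32.0 TPM in Bmal1-/-, 21.6, 19.5 and 25.0 TPM in Clock-/- and 27.8, 26.4 and 25.6 TPM in WT libraries. All 3 Bmal1-/- libraries were above and all 3 Clock-/- libraries were below every WT library. The differences, 0.26 ± 0.093 for Bmal1-/- over WT (adjusted p = 0.0404) and -0.27 ± 0.093 for Clock-/- over WT (adjusted p = 0.0477), missed the threshold of 0.01, while Map4 was higher in Bmal1-/- than in Clock-/- cells by 0.52 ± 0.093 (adjusted p = 0.000939). The Map4 differences from WT passed in 4 of 18 alternative analyses in Bmal1-/- and 2 of 18 in Clock-/- cells. Their adjusted p went down to 0.00296 and 0.00353.

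Because TPM is a level per length, the 3 related mRNAs can be set beside each other. Mapt made up 35.9% to 38.2% of their summed TPM in Bmal1-/-, 50.4% to 55.7% in Clock-/- and 22.7% to 24.3% in WT libraries. Map2 held 36.4% to 38.6%, 32.8% to 38.8% and 48.7% to 52.4% in the same lines. Map2 was therefore the most abundant of the 3 in each WT library and Mapt in each Clock-/- library, whereas in Bmal1-/- cells the Mapt range of 42.7 to 50.3 TPM and the Map2 range of 42.9 to 49.9 TPM overlapped. The sum of the 3 was 118 to 132 TPM in Bmal1-/-, 169 to 232 TPM in Clock-/- and 94.7 to 111 TPM in WT libraries. These shares contain the Mapt levels that chose the set and are given as a description. The study lists Mapt among mRNAs spliced differently in both knockouts. Libraries also differed by exon length. In Clock-/- replicate 2 the median log2 difference from the WT mean was -0.29 for genes of 6501 to 9000 bases, such as Mapt. It was -0.42 for longer genes, such as Map2 and Map4. What splicing and length add to the shares was not tested.

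**Figure D2:**
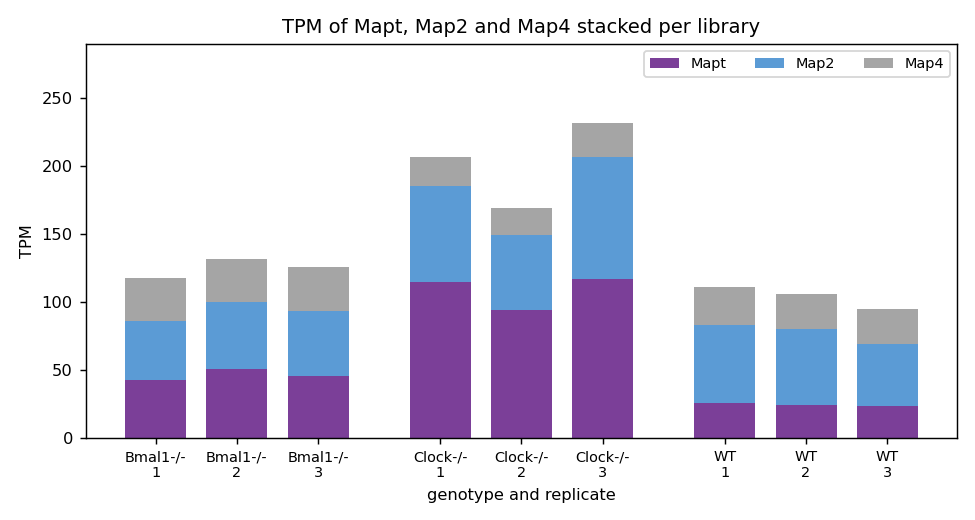
Stacked TPM of Mapt, Map2 and Map4 (vertical axis) in each library (horizontal axis: Bmal1-/-, Clock-/- and WT, replicates 1 to 3). The Mapt segment takes 50.4% to 55.7% of the bar in Clock-/- and 22.7% to 24.3% in WT libraries.

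Of the MAP1 genes, Map1b differed most between the knockouts. Map1b, which binds microtubules in growing axons, was at 115, 117 and 124 TPM in Bmal1-/-, 63.1, 48.7 and 80.7 TPM in Clock-/- and 115, 109 and 103 TPM in WT libraries. It fell in Clock-/- over WT by 0.78 on the log2 scale (SE 0.15, adjusted p = 0.00246), a call lost in 4 of 18 alternative analyses with adjusted p up to 0.0123, and the Bmal1-/- over WT value was 0.13 ± 0.15 (adjusted p = 0.489). Bmal1-/- exceeded Clock-/- cells by 0.91 ± 0.15 (adjusted p = 0.000524). Map1a, the MAP1 protein of mature neurons, was low, at 6.07, 5.49 and 5.87 TPM in Bmal1-/-, 3.43, 1.68 and 4.12 TPM in Clock-/- and 4.70, 4.80 and 4.68 TPM in WT libraries. Neither knockout against WT value passed (0.25 ± 0.21, adjusted p = 0.338, in Bmal1-/-; -0.54 ± 0.21, adjusted p = 0.0660, in Clock-/-). The difference of Bmal1-/- over Clock-/-, 0.79 ± 0.21 (adjusted p = 0.00853), passed but was lost in 11 of 17 alternative analyses, with adjusted p up to 0.0301. Map1s, the third MAP1 gene, differed between the knockouts by 0.065 (adjusted p = 0.644). Of the Map1a exons, 2.24% overlap the gene Ppip5k1 on the opposite strand, and whether the counting used strand is not given in the sources used here.

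Map6 mRNA was lower in both knockouts. It was at 8.07, 7.22 and 6.78 TPM in Bmal1-/-, 7.02, 5.51 and 8.10 TPM in Clock-/- and 13.3, 13.4 and 11.8 TPM in WT libraries, with every knockout library below every WT library. It fell by 0.73 in Bmal1-/- over WT (SE 0.13, adjusted p = 0.00131) and by 0.82 in Clock-/- over WT (SE 0.13, adjusted p = 0.00106). The knockouts differed from each other by 0.10 ± 0.13 (adjusted p = 0.562).

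The stathmins divided by gene. Stmn2, the neuronal stathmin known as SCG10, was at 8.83, 8.65 and 7.64 TPM in Bmal1-/-, 13.6, 16.3 and 15.3 TPM in Clock-/- and 39.2, 40.9 and 39.7 TPM in WT libraries. The 3 genotypes did not overlap. Stmn2 had the greatest fall of the 8 tested genes in both knockouts, by 2.13 in Bmal1-/- over WT (SE 0.092, adjusted p = 1.35e-07) and by 1.35 in Clock-/- over WT (SE 0.092, adjusted p = 3.76e-06), and was lower in Bmal1-/- than in Clock-/- cells (-0.78 ± 0.092, adjusted p = 7.08e-05). Stmn3, another neuronal stathmin, was the most abundant gene of the set in every library, at 555, 509 and 539 TPM in Bmal1-/-, 353, 414 and 320 TPM in Clock-/- and 426, 413 and 510 TPM in WT libraries. Its knockout against WT values of 0.25 ± 0.11 (adjusted p = 0.0688) in Bmal1-/- and -0.31 ± 0.11 (adjusted p = 0.0428) in Clock-/- did not pass. The Clock-/- value passed in 2 of 18 alternative analyses, with adjusted p down to 0.0084. Stmn3 was higher in Bmal1-/- than in Clock-/- cells by 0.57 ± 0.11 (adjusted p = 0.00129). Within the summed TPM of Stmn1 to Stmn4, Stmn2 took 0.485% to 0.565% in Bmal1-/-, 1.38% to 1.70% in Clock-/- and 3.22% to 3.59% in WT libraries.

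Tubb3 encodes the β-tubulin isotype used as a neuronal marker. Its level was 212, 206 and 214 TPM in Bmal1-/-, 181, 170 and 180 TPM in Clock-/- and 146, 156 and 151 TPM in WT libraries, with no overlap between genotypes. Tubb3 rose by 0.48 ± 0.055 in Bmal1-/- over WT (adjusted p = 6.67e-05). The rise of 0.23 ± 0.055 in Clock-/- over WT (adjusted p = 0.00941) lay at the threshold and was lost in 13 of 18 alternative analyses, with adjusted p up to 0.0518. Bmal1-/- exceeded Clock-/- cells by 0.25 ± 0.055 (adjusted p = 0.00332), which was lost in 5 of 18. Among 7 β-tubulin mRNAs, Tubb3 held 6.79% to 7.18% of the summed TPM in Bmal1-/-, 6.87% to 7.05% in Clock-/- and 5.31% to 5.49% in WT libraries, while Tubb5, the isotype of most cells, held 67.8% to 68.9%, 57.1% to 58.8% and 64.1% to 65.5% in the same lines.

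In Bmal1-/- over WT, 1 of the 8 tested genes rose (Tubb3) and 2 fell (Map6 and Stmn2); of all 15031 genes tested, 18.4% rose and 21.0% fell. In Clock-/- over WT, 1 rose (Tubb3) and 3 fell (Map1b, Map6 and Stmn2), against 9.5% and 14.4% of all genes. Both comparisons share the WT libraries and were used to choose the set through Mapt, so nothing is read from these shares. In Bmal1-/- over Clock-/-, 5 of 9 genes were higher (Map1a, Map1b, Map4, Stmn3 and Tubb3) and 2 were lower (Mapt and Stmn2), against 22.8% and 21.8% of all genes. Mapt is counted here although its levels in these same knockout libraries chose the set, so nothing is read from these shares either. Map2 missed the threshold in Bmal1-/- over Clock-/- at -0.58 ± 0.16 (adjusted p = 0.0102). It passed in 5 of 18 alternative analyses, with adjusted p down to 1.08e-05.

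**Figure D3:**
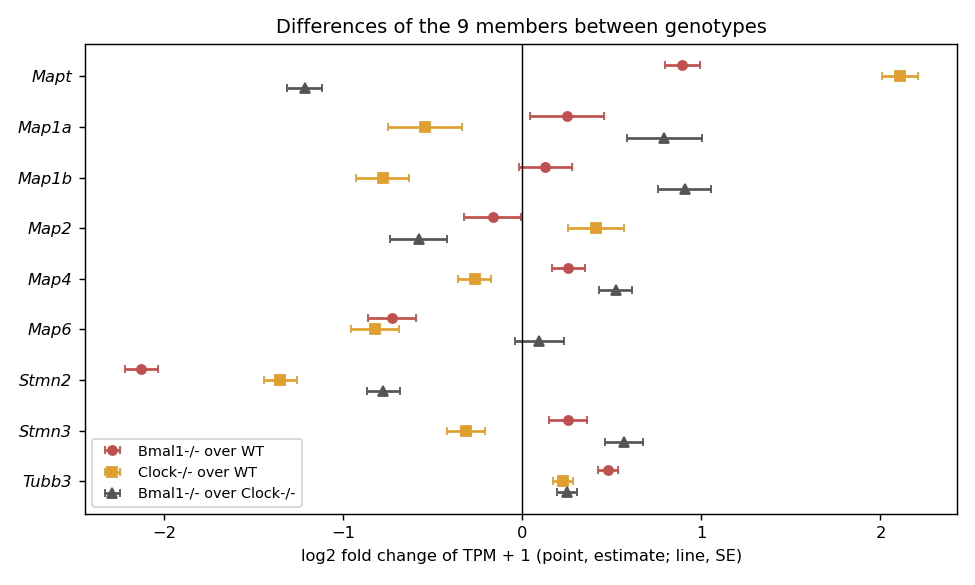
Log2 fold change of TPM + 1 (horizontal axis; points, estimates; lines, SE) of each gene for Bmal1-/- over WT, Clock-/- over WT and Bmal1-/- over Clock-/-. Stmn2 lies at -2.13 and -1.35 in the knockouts over WT and Mapt, given as a description, at 0.89 and 2.11.

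In order of level, Stmn3 and Tubb3 came first and second in all 3 lines. Next came Map1b in Bmal1-/- and WT cells and Mapt in Clock-/- cells, where Mapt at 94.2 to 117 TPM lay above Map2 at 55.4 to 89.7 TPM. Mapt took rank 5 in Bmal1-/- and rank 7 in WT cells. Neighbouring genes whose ranges overlapped were Map2 and Mapt as well as Stmn2 and Map6 in Bmal1-/-, Map2 and Map1b in Clock-/-, and Map4 and Mapt in WT cells. Map1a was last in all 3 lines.

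Many of these genes are long, and the libraries differed by length. Exon length, the bases covered by all exons of a gene in GENCODE vM21, exceeded 9 kb in Map1a, Map1b, Map2, Map4 and Map6. Over the 1363 genes of this class with a mean of at least 5 TPM, the median log2 difference from the WT mean was -0.42 in Clock-/- replicate 2, against -0.11 and 0.14 in the other Clock-/- libraries, -0.07 to 0.03 in Bmal1-/- and -0.13 to 0.11 in WT libraries. Clock-/- replicate 2 was also the lowest Clock-/- library for all 5 long genes and for Mapt. Without it, 6 of the 8 genes passed in Clock-/- over WT: Map2 rose in Clock-/- over WT by 0.59 (adjusted p = 0.00596), Stmn3 fell by 0.41 (adjusted p = 0.00840), Map1b fell by 0.60 and the Map1a value was -0.27, while Map6, Stmn2 and Tubb3 passed as before; its part in these results was not tested further. With the median of each length class subtracted, an alternative chosen after the data were seen, the values in Clock-/- over WT were 0.55 for Map2 (adjusted p = 8.29e-05) and 0.17 for Tubb3 (adjusted p = 0.0281).

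**Figure D4:**
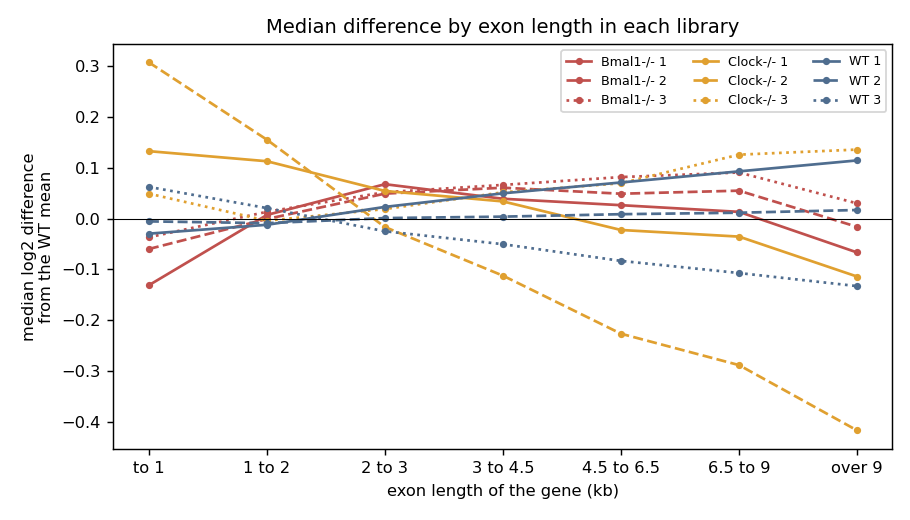
Median log2 difference of TPM + 1 from the WT mean (vertical axis) for genes in 7 classes of exon length (horizontal axis, kb), a line per library. Clock-/- replicate 2 runs down to -0.42 in the longest class, whereas the other libraries stay between -0.13 and 0.14 there.

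The genes whose log2(TPM + 1) over the 9 libraries was most like that of Mapt, among 11633 compared, were Synpr (a synaptic vesicle protein, Pearson r = 0.997), Lrrc1 (a polarity scaffold, 0.997), Rab15 (an endosomal GTPase, 0.995), Hmgb3 (a chromatin protein, 0.994) and Dsc2 (a desmosomal cadherin, 0.991). Synpr was at 16.6, 18.4 and 19.3 TPM in Bmal1-/-, 47.6, 40.2 and 51.9 TPM in Clock-/- and 8.57, 9.23 and 8.13 TPM in WT libraries. The 9 points share 3 lines, so these coefficients mainly reflect 3 levels and are given as a description.

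THRAP3 ChIP-seq peaks lay at 5 of the 9 genes, within the gene or within 1 kb of a start site: Mapt, Map1b, Map2, Map4 and Tubb3. All 5 had a peak in both Bmal1-/- lists, where 29.1% and 26.3% of 22028 protein-coding genes had one (replicates 1 and 2). In WT replicate 2, Map2 and Tubb3 had one, against 14.5% of genes, and in WT replicate 1 none of the 9 did, against 2.19% of genes. The lists differ in size, with 12949 and 12226 peaks in Bmal1-/- and 808 and 6128 in WT, and the share of tags in peaks was 1.86% and 1.67% in Bmal1-/- against 0.11% and 0.76% in WT libraries, so a peak missing from a WT list is not evidence of absent binding. Long genes hold more peaks: among genes over 100 kb, such as Mapt, Map2 and Map4, 58.6% and 57.1% had one in the Bmal1-/- lists and 8.02% and 39.4% in the WT lists.

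Mapt had 2 sites, both in both Bmal1-/- lists and in neither WT list. The first lay at the start site, centred 15 bases after it at 12.6-fold over input in replicate 1 and at -209 bases, before it, at 29.2-fold over input in replicate 2, and the second lay in an intron with 8.64 and 8.02 tags (normalized by the library's total) in replicates 1 and 2. A peak within 1 kb of a start site was also called at Map1b and Map2 in Bmal1-/- replicate 1 and at Map4 in Bmal1-/- replicate 2; 22.0% and 18.5% of protein-coding genes had such a peak in the Bmal1-/- lists and 0.926% and 8.71% in the WT lists. Map2 had the most sites. Of its 10, those in introns at chr1:66244832-66245080 and chr1:66335937-66336185 were called in 3 of the 4 lists, as was the Tubb3 intron site at chr8:123412894-123413142. The first Map2 site carried 20.4 and 26.1 normalized tags in Bmal1-/- and 14.0 in WT replicate 2, and the Tubb3 site 18.8 and 20.7 in Bmal1-/- and 10.9 in WT replicate 2. Fold over input was 11.7 and 15.0 in Bmal1-/- against 5.78 in WT replicate 2 at this Map2 site. At the Tubb3 site it went the other way from the tags, at 5.41 and 4.76 in Bmal1-/- against 13.5 in WT replicate 2. No peak lay within 5 kb of a start site of Map1a, Map6, Stmn2 or Stmn3 or within these genes.

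The sequences of the 3 sites called in 3 of the 4 lists are shown, since no other site of the set was called in as many. They are read from the plus strand of GRCm38 (mm10) at the Bmal1-/- replicate 1 coordinates, with capitals marking exact matches on either strand to TGACTCA (the AP-1 site), CACGTG (the E-box bound by CLOCK and BMAL1), CCGGAA (an ETS core) or GGGCGG (a GC box).
Map2 intron, chr1:66244832-66245080: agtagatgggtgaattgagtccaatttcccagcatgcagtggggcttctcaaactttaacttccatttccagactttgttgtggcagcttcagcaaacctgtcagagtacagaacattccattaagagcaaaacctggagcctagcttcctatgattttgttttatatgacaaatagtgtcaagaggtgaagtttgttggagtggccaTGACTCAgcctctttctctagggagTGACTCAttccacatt
Map2 intron, chr1:66335937-66336185: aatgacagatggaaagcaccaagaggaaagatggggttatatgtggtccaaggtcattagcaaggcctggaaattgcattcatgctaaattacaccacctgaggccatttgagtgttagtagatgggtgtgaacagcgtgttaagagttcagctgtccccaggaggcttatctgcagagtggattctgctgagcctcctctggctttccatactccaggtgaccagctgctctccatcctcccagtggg
Tubb3 intron, chr8:123412894-123413142: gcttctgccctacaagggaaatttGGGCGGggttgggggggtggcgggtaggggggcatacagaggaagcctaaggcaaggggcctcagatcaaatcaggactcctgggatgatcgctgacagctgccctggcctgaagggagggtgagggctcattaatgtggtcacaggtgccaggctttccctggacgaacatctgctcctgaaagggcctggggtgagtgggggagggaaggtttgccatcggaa
The first Map2 site held TGACTCA at 2 places, the second held none of the 4 motifs, and the Tubb3 site held GGGCGG once. In Bmal1-/- replicate 1, TGACTCA was present in 9.65% of all peaks, CACGTG in 5.43%, CCGGAA in 10.5% and GGGCGG in 25.5%. These are matches of letters and not shown to be bound sites.

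The RefSeq promoter table for this build holds 7 promoters of 6 of the genes (Map1a, Map1b, Map2, Map4, Stmn3 and Tubb3), from 250 bases before to 50 bases after the start; Mapt, Map6 and Stmn2 have no entry. CACGTG was in 0 of the 7, against 7.15% of the 32851 promoters, and TGACTCA in 0, against 5.20%. CCGGAA was in 1 (Map1b), against 14.9%, and GGGCGG in 5 (Map1a, Map1b, Map2, Map4 and Tubb3), against 35.7%.

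Further genes of the microtubule pathway were taken from 6 lists. The counts in each list stand beside the shares of all 15031 genes tested. Of these, 18.4% rose and 21.0% fell in Bmal1-/- over WT, and 9.5% rose and 14.4% fell in Clock-/- over WT. No list was tested as a set, and nothing is read from its counts. Of 16 tubulins tested, Tubb3 included, 4 rose and 4 fell in Bmal1-/- over WT, and 3 rose and 5 fell in Clock-/- over WT, with medians of 0.11 and -0.09 against -0.04 and -0.02 over all genes; in Clock-/- 2 fell with median-ratio scaling, and 0 rose and 3 fell with chromosome medians subtracted, when 2 fell in Bmal1-/-. In Bmal1-/- over WT the δ-tubulin gene Tubd1 rose by 0.88, the γ-tubulin gene Tubg1 of the nucleating ring complex rose by 0.79, and the α-tubulin gene Tuba4a fell by 0.83. With chromosome medians subtracted these values were 0.52, 0.43 and -0.48, and all 3 still passed. The β-tubulin gene Tubb4a was at 0.633, 0.688 and 0.591 TPM in Bmal1-/-, against 12.5, 14.3 and 13.5 TPM in WT libraries. In Clock-/- over WT, Tubb2a and Tubb2b rose by 0.39 each (0.34 and 0.33 with chromosome medians subtracted, adjusted p = 0.0165 and 0.0381), and Tuba8 and Tubb6 fell by 1.42 and 0.46. Tubb2a and Tubb2b are near-identical, so reads may be split uncertainly between them.

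Of 28 other microtubule-binding proteins tested, 4 rose and 6 fell in Bmal1-/- over WT, and 0 rose and 3 fell in Clock-/- over WT (limma; medians -0.13 and -0.18); the Bmal1-/- median turned to 0.15 with chromosome medians subtracted, and 8 fell in Clock-/- with length medians subtracted or with median-ratio scaling. Doublecortin, which stiffens microtubules in migrating neurons, is encoded by Dcx. It was at 36.1, 37.8 and 40.5 TPM in Bmal1-/- and 116, 102 and 85.1 TPM in WT libraries, and its relative Dclk1 at 2.39, 2.47 and 2.40 TPM in Bmal1-/- and 16.1, 14.9 and 12.1 TPM in WT libraries. Map7, which recruits kinesin, rose by 0.98 and Camsap3, which caps minus ends, by 0.69 in Bmal1-/- over WT. In Clock-/- over WT, Stmn4 fell by 0.94 and Map7d1 by 0.49.

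Of 24 enzymes that modify or sever tubulin polymers, 6 rose and 4 fell in Bmal1-/- over WT and 1 rose and 4 fell in Clock-/- over WT (medians 0.10 and -0.25). In Clock-/- 7 fell with median-ratio scaling or with length medians subtracted, and in Bmal1-/- 9 rose and 3 fell with chromosome medians subtracted. The detyrosinating peptidase Vash1 rose by 1.16 and the tubulin acetyltransferase Atat1 by 0.56 in Bmal1-/- over WT, whereas the polyglutamylase Ttll7 fell by 0.66 and the deglutamylase Agtpbp1 by 0.58. In Clock-/- over WT the severing enzyme Spast rose by 0.65, and Vash2 and the deacetylase Hdac6 fell by 0.80 and 0.78. Vash1 was at 60.5, 60.0 and 63.7 TPM in Bmal1-/-, against 30.6, 29.7 and 21.5 TPM in WT libraries.

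Of 25 kinases and phosphatases that act on tau, 8 rose and 6 fell in Bmal1-/- over WT and 2 rose and 5 fell in Clock-/- over WT (medians 0.18 and -0.04, the second turning to 0.03 with length medians subtracted). Activators of the tau kinase CDK5 moved apart. Cdk5r2 (p39) was at 24.2, 23.9 and 22.5 TPM in Bmal1-/-, 59.0, 59.5 and 61.0 TPM in Clock-/- and 72.4, 74.0 and 71.4 TPM in WT libraries, and fell by 1.59 in Bmal1-/- over WT and by 0.27 in Clock-/- over WT. The Clock-/- call ended with chromosome medians subtracted (-0.024, adjusted p = 0.815) and with median-ratio scaling (-0.24, adjusted p = 0.0195). Cdk5r1 (p35) was at 16.8, 17.3 and 16.7 TPM in Bmal1-/-, 13.2, 12.6 and 15.1 TPM in Clock-/- and 9.84, 10.3 and 9.34 TPM in WT libraries, and rose by 0.43 in Clock-/- over WT. The tau-tubulin kinase Ttbk1 fell by 1.29 in Bmal1-/- and by 0.97 in Clock-/- over WT. Fyn and Gsk3a, both tau kinases, rose by 0.82 and 0.73 in Bmal1-/-, while in Clock-/- cells the kinase Brsk2 rose by 0.88 and the PP2A regulatory subunit Ppp2r2b fell by 1.59.

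Among 29 subunits of transport motors, 9 rose and 4 fell in Bmal1-/- over WT and 1 rose and 2 fell in Clock-/- over WT (medians 0.17 and -0.11, the second turning to 0.01 without Clock-/- replicate 2). The kinesin Kif1c was at 50.5, 46.0 and 47.7 TPM in Bmal1-/-, against 12.4, 12.5 and 10.1 TPM in WT libraries, a log2 fold change of 1.96. Kif1c lies on chromosome 11, as Mapt, Tubd1, Tubg1 and Cdk5r1 do. The kinesin light chain Klc4 rose by 1.42, and the dynein chains Dync1i1 and Dynll1 fell by 1.28 and 1.17 in Bmal1-/- over WT. In Clock-/- over WT the dynactin subunit Dctn2 rose by 0.33 and the kinesin subunits Kif5a and Kifap3 fell by 0.60 and 0.38, and with chromosome medians subtracted neither Dctn2 (0.31, adjusted p = 0.0108) nor Kifap3 (-0.13, adjusted p = 0.0748) passed.

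Of 20 other genes of the neuronal cytoskeleton and neurite growth, 5 rose and 9 fell in Bmal1-/- over WT and 1 rose and 8 fell in Clock-/- over WT (medians -0.26 and -0.25); with chromosome medians subtracted 6 rose and 6 fell in Bmal1-/-. Gap43, a growth-cone protein, was at 28.0, 25.1 and 25.0 TPM in Bmal1-/-, 12.4, 15.4 and 11.1 TPM in Clock-/- and 66.3, 67.2 and 62.9 TPM in WT libraries, so that all knockout libraries were below all WT libraries. The neuronal filament gene Ina fell by 1.33 in Bmal1-/- and 0.47 in Clock-/- over WT. Elavl3, a neuronal RNA-binding protein, was at 0.533, 0.718 and 0.393 TPM in Bmal1-/-, against 8.46, 9.54 and 8.64 TPM in WT libraries, and Tagln3 at 3.81, 2.93 and 2.28 TPM in Clock-/-, against 16.5, 15.7 and 22.2 TPM in WT libraries. The filament gene Prph rose by 0.80 in Clock-/- over WT, and Marcksl1 and Gprin1 rose by 0.89 and 0.62 in Bmal1-/- over WT.

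**Figure D5:**
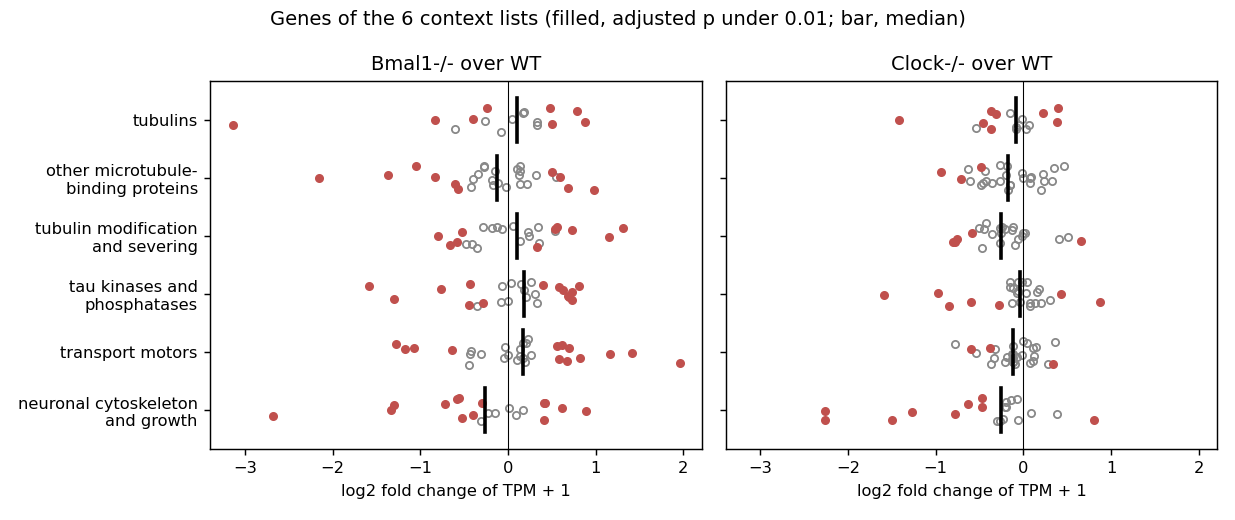
Log2 fold change of TPM + 1 (horizontal axes) of each tested gene in the 6 lists (rows) for Bmal1-/- over WT (left) and Clock-/- over WT (right); filled points passed an adjusted p of 0.01 and black bars are list medians. The neuronal cytoskeleton list has medians of -0.26 and -0.25, and the other medians lie between -0.25 and 0.18.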

How the data were processed

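RNA-seq values are TPM as deposited by the authors, who aligned reads to mm10 with STAR 2.5.0 and GENCODE vM10 and counted exons with featureCounts 1.5.3; TPM keeps no read depth, so depth per library is unknown and no count model was run. THRAP3 peaks were called by the authors with HOMER per library over the input of the genotype after Bowtie2 2.2.4; the peak signal (normalized tags) and the fold over input ratio are the deposited values, with 12296107 to 14961095 tags per library. Tables of the authors' own comparisons (fold changes and p-values) were not used, nor were the inputs and eCLIP libraries.

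The log2 of TPM + 1 of genes with at least 1 TPM in at least 3 of 9 libraries was fitted by limma 3.58.1 (R 4.3.3; lmFit, contrasts.fit, eBayes with trend) with genotype as the only term, with Benjamini-Hochberg adjustment over 15031 genes. Rose and fell mean an adjusted p under 0.01. Values after ± are SE for log2 fold changes and SD for levels. The code was tested on simulated data. Peaks were assigned with GENCODE vM21 on GRCm38 in Python 3.11.15, and motifs were exact matches.

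Alternatives were the pseudocount (0.1, 0.5), the filter, median-ratio scaling, chromosome-median subtraction, only the compared genotypes, a replicate block, each library left out, and, added later, subtraction of the median of exon-length classes; for peaks they were the distance, an 8-fold minimum, the peak centre and each library left out. Genes named outside the set are the 2 greatest rises and falls per list and knockout at a mean of at least 5 TPM in the higher group, and the 5 most like Mapt. The members and lists were chosen with earlier results of these data known.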

Additional observations from a re-analysis of the deposited data

Results flagged for a closer look

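The effects of the knockouts over WT differed from each other at an adjusted p under 0.01 (limma, Bmal1-/- over Clock-/- in the same fit) for 7 of the 9 genes, with log2 differences of Mapt -1.22, Map1a 0.79, Map1b 0.91, Map4 0.52, Stmn2 -0.78, Stmn3 0.57 and Tubb3 0.25. Positive values are higher in Bmal1-/- cells. Mapt is among the 7 although its levels in these same knockout libraries chose the set. Of all 15031 genes tested, 22.8% were higher and 21.8% were lower in Bmal1-/- than in Clock-/- cells. The call was lost for Map1a in 11 of 17 alternative analyses, for Tubb3 in 5 of 18 and for Stmn3 in 1 of 18. A call was gained for Map2 in 5 of 18. Map1a, Map1b, Map4 and Stmn3 were on opposite sides of 0 in the knockouts over WT, and Mapt, Stmn2 and Tubb3 on the same side. No library was tested against the others of its genotype, since each genotype has 3, and the values of Clock-/- replicate 2 given above are a description.

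Among the other named genes the same difference was found for Arntl, at -1.68. The list genes that follow were named for their large changes in a knockout over WT in the same fit. That choice favours a difference between the knockouts, so their values are given as a description. Of 42 genes named in this way, 35 differed at an adjusted p under 0.01, beside the shares of all genes given above. For tubulins the log2 differences were Tubd1 1.03, Tubg1 0.81, Tubb4a -2.60, Tuba4a -0.75, Tubb2a -0.35 and Tubb2b -0.46. Other microtubule-binding proteins differed as Map7 0.52, Dclk1 -2.25, Dcx -1.57, Stmn4 0.55 and Map7d1 0.99, and enzymes that modify or sever microtubules as Vash1 1.21, Atat1 0.81, Spast -0.51, Vash2 1.04 and Hdac6 1.00. Tau kinases and phosphatases differed as Fyn 0.61, Gsk3a 0.65, Cdk5r2 -1.31, Brsk2 -1.23 and Ppp2r2b 0.82, transport motors as Kif1c 1.81, Klc4 1.06, Dync1i1 -1.09, Dynll1 -1.06, Dctn2 0.25, Kif5a 0.83 and Kifap3 0.34, and genes of the neuronal cytoskeleton as Marcksl1 0.95, Gprin1 0.76, Elavl3 -2.45, Ina -0.86, Prph -1.39, Gap43 0.96 and Tagln3 2.43. The 5 genes most like Mapt were chosen for following it over the same libraries, which fixes the direction of their differences, so these are a description with no test: Synpr -1.31, Lrrc1 -0.62, Rab15 -1.02, Hmgb3 -0.32 and Dsc2 -1.17.

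Some of these differences did not pass under another setting. With chromosome medians subtracted the values were 0.51 for Gap43 (adjusted p = 0.0142), -0.23 for Tubb2a (0.0513), -0.34 for Tubb2b (0.0212) and 0.24 for Dctn2 (0.0241), and the Tubg1 value was 0.50 and still passed. Dctn2 was at 0.18 with median-ratio scaling (0.0747) and at 0.14 with length medians subtracted (0.177). Without Clock-/- replicate 2, Map7 was at 0.40 (0.0109) and Kifap3 at 0.28 (0.0103).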

How the results depend on the processing

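The direction held in all alternatives for every gene of the set except Map2 in Bmal1-/- over WT, which was 0.18 with chromosome medians subtracted, and Map6 in Bmal1-/- over Clock-/-, which was -0.034 without Clock-/- replicate 2; neither was called. In Bmal1-/- over WT, 3 of 8 genes passed whichever library was left out, and Map6, Stmn2 and Tubb3 passed in all 18 alternatives. In Clock-/- over WT, where 4 of 8 passed, 2 passed (Map6 and Stmn2) with only the compared genotypes in the fit, and 2 to 6 when a library was left out. The 2 were reached without WT replicate 1, without WT replicate 2 or without Clock-/- replicate 1, where the Map1b adjusted p was 0.0123, 0.0110 and 0.0103. In Bmal1-/- over Clock-/-, 5 to 8 of 9 passed with a library left out. Replicate numbers do not pair the libraries: the correlation of deviations from the genotype mean was -0.21 to 0.07 for pairs with a shared number, against -0.16 to 0.21 for other pairs. With a replicate block, 3, 3 and 5 genes passed in the 3 comparisons, and the Tubb3 adjusted p in Clock-/- over WT was 0.0282. The 5 genes with a THRAP3 peak in any list were the same under every peak alternative. Leaving out a list could not change them, since all 5 had a peak in both Bmal1-/- lists. With the 8-fold minimum Tubb3 kept only its WT replicate 2 peak (13.5-fold over input), as its Bmal1-/- peaks were at 5.41 and 4.76.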
